A study of Mus musculus with 1699 samples.

Results

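The genes described here encode the nuclear subunits and assembly factors of the oxidative phosphorylation system (OXPHOS). They are the protein-coding genes whose symbols begin with Nduf, Uqcr, Atp5, Cox4, Cox5, Cox6, Cox7 or Cox8, together with Sdha, Sdhb, Sdhc and Sdhd. Symbols were read from the Ensembl identifiers, and 93 of the 39468 entries of each table fitted the rule. The rule itself uses no measured value, though earlier results of these data were known when it was chosen. By role, 7 encoded core subunits of complex I, 29 its other subunits, 8 its assembly factors, 4 complex II, 8 complex III, 20 complex IV, 5 the catalytic F1 part of ATP synthase and 11 its membrane part and stalk. The remaining gene was Atp5s, known as a coupling factor.

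Single GFP-positive cells were sorted from the mouse ventral midbrain and sequenced with Smart-seq2, a method that reads full-length polyadenylated RNA of 1 cell per library. All mice carried eGFP in the Pitx3 locus. The label Pitx3tm1Mli heterozygote covered cells of embryonic days 13.5, 15.5 and 18.5 (E13.5, E15.5, E18.5) and postnatal days 1, 7 and 90 (P1, P7, P90), and Pitx3tm1Mli homozygote covered E13.5 and P1. Mice without the GFP allele were not analysed here, and GFP in heterozygotes marks the cells in which Pitx3 is or was active, dopamine neurons above all. After limits on depth and detection, and after the oligodendrocyte-lineage cells (8% of those within the limits) had been left out by their markers, 1517 of 1699 cells remained. Heterozygote cells at E13.5 and at E15.5 numbered 140 each, and those at E18.5, P1, P7 and P90 made up 12.3%, 18%, 6.99% and 21.4% of the 1517. Homozygote cells made up 11.8% (E13.5) and 11% (P1). The labels name no animal, so each stage and genotype stood as 1 sample. Differences between groups therefore had no replicate check, no test was run, and the intervals given below cover counting error only.

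Libraries held a median of 753256 to 2357898 reads per group, with the fewest in E13.5 homozygotes. The labels call every cell a neuron. At least 3 of 6 neuron markers were above 10 RPKM in 97.4% to 100% of heterozygote cells at every stage but P7, where the share was 79.2%. At P7, 40 kept cells (37.7%) carried at least 3 markers of the oligodendrocyte lineage, of astrocytes, of microglia or of vessels, against 0% to 8.43% in the other heterozygote stages. RPKM are reads scaled by the length of the transcript and by the mapped reads of the cell. Embryonic tissue, P1 and P7 tissue, and P90 tissue were each dissociated with a different kit or enzyme. All E18.5 and P90 cells and 94 of the P1 heterozygote cells had spike-in RNA, and no heterozygote cell at E13.5, E15.5 or P7 did. The difference of P90 from E13.5 and from P7 therefore cannot be told apart from dissociation and library batch. The steps from E15.5 to E18.5 and from P1 to P7 likewise cannot be told apart from library batch. Nor can the step from E18.5 to P1 from dissociation and library batch.

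Oxidative phosphorylation couples the transfer of electrons along the inner mitochondrial membrane to ATP synthesis. Complexes I and II take electrons from NADH and succinate, complex III passes them to cytochrome c, complex IV hands them to oxygen, and ATP synthase uses the proton gradient that complexes I, III and IV build. Most subunits are encoded in the nucleus and 13 in mitochondrial DNA. Neurons depend heavily on this pathway, and dopamine neurons are known for their sensitivity to inhibitors of complex I.

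Most nuclear OXPHOS genes were well detected in these cells at every stage. Mean RPKM over the 6 heterozygote stages was highest for Atp5b, the catalytic beta subunit of ATP synthase, at 1356, followed by Cox4i1 (1311), Atp5a1 (748), Atp5j (709), Cox6b1 (641) and Atp5o (618). For Atp5o 44.4% of 43-base stretches also occurred in other annotated genes, among them an antisense transcript, so its value is uncertain. At E13.5, 75 of 93 genes were above 10 RPKM in at least 50% of cells, and at P90 83 were. The median gene was above 10 RPKM in 87.1% of cells at E13.5 and in 99.7% at P90. A further 8 genes stayed under a mean of 5 RPKM over the stages. These 8 were Cox7a1, Ndufa4l2, Atp5g2, Cox4i2, Cox8b, Cox7b2, Cox6a2 and Cox8c.

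The summed RPKM of the 93 genes made up 2.47% of all RPKM in the median E13.5 cell, with quartiles of 2.16% and 2.77%. For E15.5, E18.5, P1 and P7 the medians were 2.06%, 2.33%, 2.13% and 2.16%. At P90 it was 3.38%, with quartiles of 2.86% and 4.12%. Of the P90 cells, 290 lay above the E13.5 median, or 89.2% (exact Clopper-Pearson interval 85.3% to 92.4%), and 83 lay above the highest E13.5 cell. The 4 plates of P90 cells had medians of 3.89%, 3.06%, 3.42% and 3.16%, each above the median of every other group of heterozygote cells. Kept P7 cells with 3 glial or vascular markers had a median share of 2.13% and the other P7 cells 2.20%, so the P90 share was the higher against either. The 3 highest P90 cells reached 19.3%, 12.2% and 12.1%, and the last of these held 100007 reads, just over the depth limit.

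**Figure D1:**
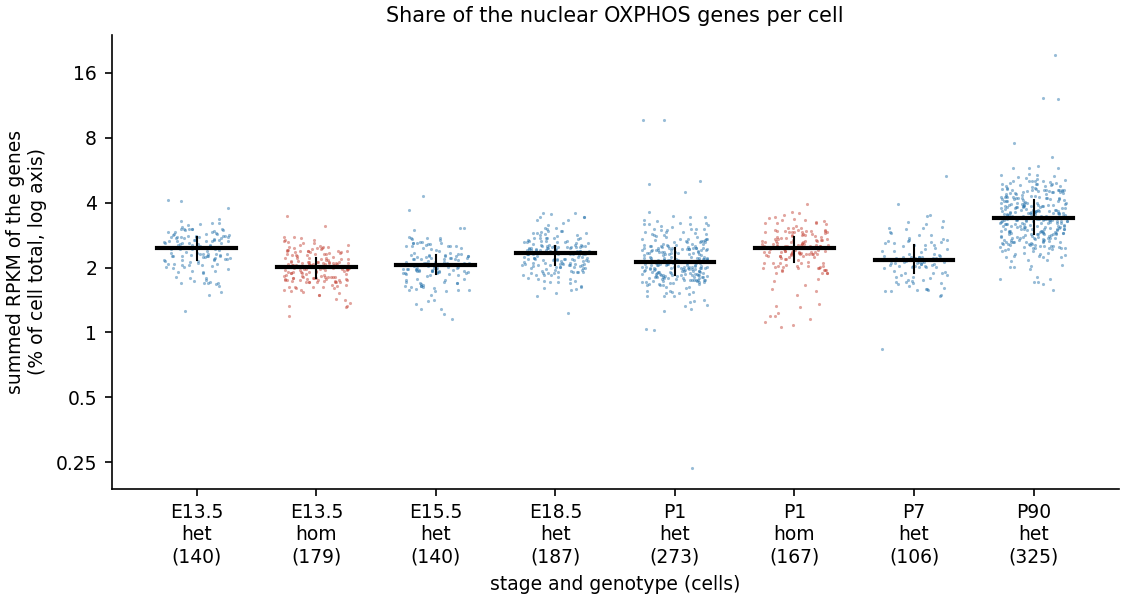
Summed RPKM of the 93 genes as a percent of all RPKM in each kept cell, on a log axis, by stage and genotype, with the number of cells below each column. Points are cells, thick lines medians and thin lines quartiles. Heterozygotes are blue and homozygotes red. The P90 median of 3.38% stands above the medians of 2.06% to 2.47% of the other heterozygote stages.

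Gene by gene, P90 was the stage of the highest mean for 75 of the 85 genes whose mean over the stages was at least 5 RPKM, and for 25.7% of the 10414 entries over that limit. E15.5 was the stage of the lowest mean for 36 of these 85, and for 15% of those entries. Ratios between 2 groups were taken as log2 of the mean RPKM plus 1, for entries whose 2 means averaged at least 5 RPKM. From E13.5 to P90 the median log2 ratio of the 85 OXPHOS genes so tested was 0.73, and that of all 10163 tested entries was −0.14. With medians over cells in place of means these were 0.75 and 0.24, so the value of all entries turned in sign. By means, the ratio was above 0 for 79 OXPHOS genes, or 92.9%, and for 44.6% of all tested entries. At a limit of 1.5-fold, 52 of 85 were higher and 1 was lower at P90, while 26.3% of all tested entries were higher and 33.3% lower. At a limit of 2-fold, 20 of the 85 were higher and 0 lower, beside 17.9% of all entries higher and 21% lower. The share of genes higher by 2-fold was thus near the background, while that at 1.5-fold was above it, and the shares of lower genes were below it at both limits. When the RPKM of each cell were scaled to the same total (TPM), the median was 0.58, with all entries at −0.24, and 12 genes passed 2-fold upwards. The median was 0.72 for the 31 genes read over less than 500 bases and 0.79 for the 24 genes over more than 1000, so it was similar for short and long transcripts.

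Most of the difference lay between P7 and P90. The median log2 ratio was −0.14 from E13.5 to E15.5, 0.10 from E15.5 to E18.5, 0.07 from E18.5 to P1, 0.14 from P1 to P7 and 0.57 from P7 to P90. With medians over cells in place of means, the value from E18.5 to P1 was −0.06, and no other of these turned in sign. From E13.5 to E15.5 no OXPHOS gene passed 2-fold in either direction, and 3.28% and 4.25% of all tested entries were higher and lower. From E15.5 to E18.5 only Atp5g1 was higher, with 7.74% of all entries higher and 3.35% lower. From E18.5 to P1 none passed the limit, against 2.15% and 0.253% of all entries. From P1 to P7, 2 of 86 genes were higher, Ndufa4l2 and Cox6b2, beside 6.31% of all entries, and none was lower, beside 0.867%. Both passed the filter on low values only through P7, and Ndufa4l2 would not have passed without 4 P7 cells with vascular markers. From P7 to P90, 10 of 87 genes were higher, beside 8.39% of all entries, and 1 was lower, Ndufa4l2, again through P7 alone, beside 16.7%. Cox7a1, among the 10, passed the filter only through P90, here and against E13.5. Without the cells that carried 3 glial or vascular markers, the median from P7 to P90 was 0.55. The low point at E15.5 followed transcript length: the median was −0.33 for the 30 genes read over less than 500 bases and 0.05 for the 24 genes over more than 1000 bases, and for all tested entries of those lengths −0.20 and 0.00.

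**Figure D2:**
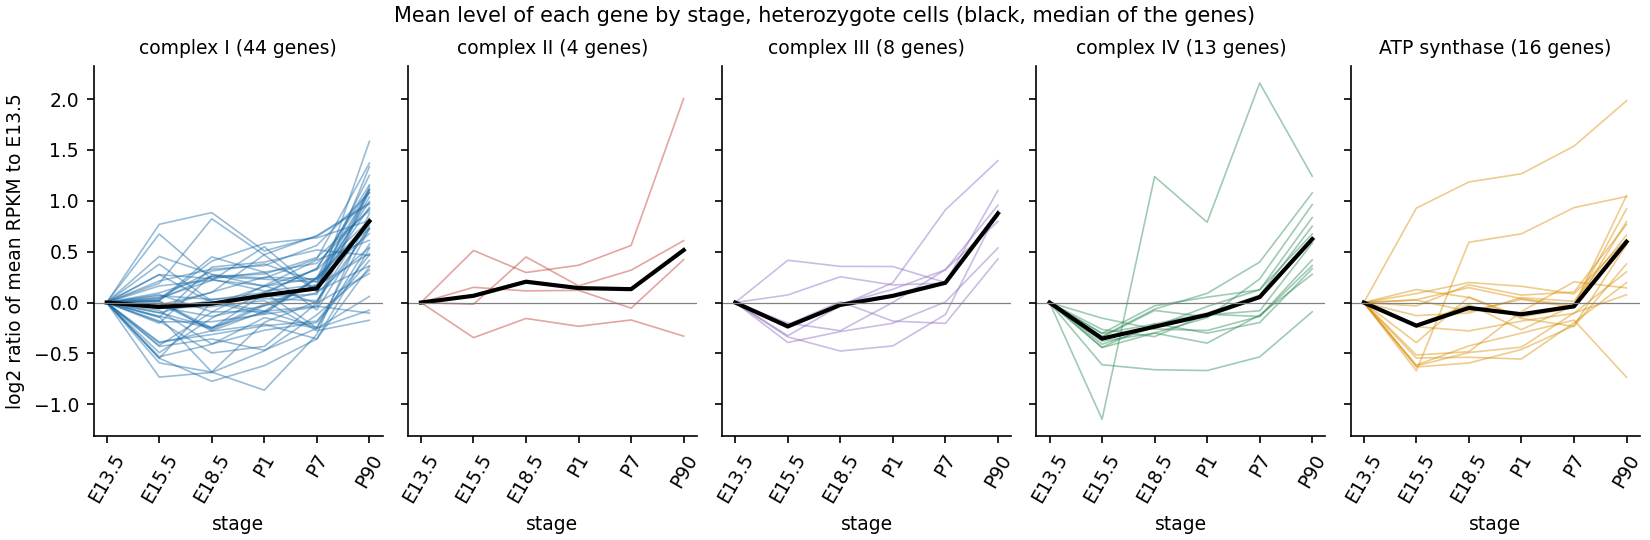
Mean RPKM of each gene at 6 stages of heterozygote cells, as the log2 ratio to its E13.5 level, in 1 panel per complex for the 85 genes with a mean of at least 5 RPKM. Thin lines are genes and the black line is their median. In every panel the median is higher at P90 than at any earlier stage.

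Among the complexes, the median log2 ratio from E13.5 to P90 was 0.99 for the 7 core subunits of complex I, which carry its flavin and iron-sulfur centers, 0.72 for its 29 other subunits and 0.77 for its 8 assembly factors. It was 0.52 for complex II, 0.88 for complex III, 0.62 for the 13 tested complex IV genes, 0.77 for the F1 part of ATP synthase and 0.47 for its membrane part and stalk. With 1 sample per stage these medians could not be ranked.

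Among the core subunits of complex I, Ndufs7 had means of 186.8, 162.1, 225.7, 220.8, 252.1 and 484 RPKM in stage order. The P90 level was the highest, with a log2 ratio to E13.5 of 1.37. Ndufv2 (205.3 to 454 RPKM) and Ndufv1 (175.3 to 371.8 RPKM), which form the NADH-oxidizing end of the complex, had log2 ratios of 1.14 and 1.08. Ndufs3 differed least in this group, from 105.9 to 135.4 RPKM. Of the other subunits Ndufb5 showed the largest ratio, from 220.6 to 558 RPKM, or 1.33 on the log2 scale, and Ndufs4 and Ndufa7 were slightly lower at P90 (101.7 to 90.03 RPKM and 433 to 411 RPKM). Of the assembly factors Ndufaf5 stood at 22.8, 26.2, 41.2, 31.9, 24.7 and 70.4 RPKM in stage order. It was above 10 RPKM in 27.1% of E13.5 cells (interval 19.98% to 35.3%) and in 89.8% of P90 cells (86.04% to 92.9%). Ndufaf7 remained at a like level, with 30.3 RPKM at E13.5 and 28.1 at P90.

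Complex II, succinate dehydrogenase, is the only complex made of nuclear subunits alone and is also an enzyme of the tricarboxylic acid (TCA) cycle. Its flavoprotein gene Sdha had a mean of 153.3 RPKM at E13.5, means between 188.3 and 226.7 from E15.5 to P7 and 618 RPKM at P90. With 1 added to both, the P90 mean was 4.01-fold that of E13.5, and the lower quartile of P90 cells, 415 RPKM, lay above the upper quartile of E13.5 cells. Sdhb, the iron-sulfur subunit, was at 347.4 RPKM at E13.5 and 466 at P90. Of the membrane anchors, Sdhd was at 131.1 and 200.4 RPKM. Sdhc, the other anchor, was the only one lower at P90, with 205.4 RPKM at E13.5 and 163.2 at P90. Subunits that assemble in equal numbers thus differed in their ratios, which were 0.42 for Sdhb, 0.61 for Sdhd and −0.33 for Sdhc on the log2 scale, each well under that of Sdha.

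In complex III, which carries electrons from ubiquinol to cytochrome c, all 8 genes had higher means at P90. Uqcr10, a small subunit, was at 164.7, 131.2, 161.1, 188.7, 310.5 and 435 RPKM in stage order, and so was higher at P7 than at earlier stages. Its log2 ratio was 1.39, that of the core gene Uqcrc2 was 1.10 (176.9 to 380.6 RPKM), and that of Uqcrfs1, the Rieske iron-sulfur protein, was 0.43 (226.6 to 305.2 RPKM).

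In complex IV, cytochrome c oxidase, Cox8a (405 to 856 RPKM) and Cox6c (197.5 to 386 RPKM) had log2 ratios of 1.08 and 0.96. Cox4i1, the most abundant, was at 1319, 993, 1116, 1213, 1247 and 1976 RPKM in stage order and was above 10 RPKM in every kept heterozygote cell. Cox7a2 (278.5 to 338 RPKM) differed little. Cox7c was at 63.4 and 59.5 RPKM, a value made uncertain by the 22.8% of its 43-base stretches that other annotated genes also hold.

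Several complex IV subunits are encoded by more than 1 gene, of which 1 is used in most tissues. Cox4i1 made up 99.95% or more of the summed RPKM of Cox4i1 and Cox4i2 at both E13.5 and P90. Cox6a1 made up 99.98% of its pair with the muscle form Cox6a2 at E13.5, and Cox6a2 was listed at 0 at P90. The muscle and heart form Cox8b had no read at 5 of the stages and was above 10 RPKM in 3 P7 cells. Cox7a1 is the form known from heart and skeletal muscle. It was at 1.55, 2.68, 2.68, 1.63 and 2.32 RPKM from E13.5 to P7 and at 15.2 RPKM at P90. It was above 10 RPKM in 2.86% of E13.5 cells (interval 0.784% to 7.15%) and 34.5% of P90 cells (29.3% to 39.9%). The P90 value rested on 3035 reads summed over cells. Its median over cells was 0 at every stage, so the mean came from a part of the cells, and it held 2.65% of the summed RPKM of Cox7a1, Cox7a2 and Cox7a2l at P90 against 0.344% at E13.5. No kept P90 cell at all carried 2 endothelial or mural markers.

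Ndufa4l2, a relative of the complex IV subunit Ndufa4 known from vessel-associated cells and low oxygen, had a mean of 12.5 RPKM at P7 and at most 1.48 RPKM at other stages. At P7 it was above 10 RPKM in 4 cells, of which 1 carried 2 endothelial or mural markers, and without the 4 P7 cells that did so its mean was 1.61 RPKM. Cox6b2, described in testis, was above 10 RPKM in 20 P7 cells and 67 P90 cells, with means of 13.5 and 6.69 RPKM.

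In ATP synthase, Atp5b was at 1129, 1151, 1250, 1159, 1107 and 2339 RPKM in stage order. The first 5 means were close and that at P90 was 2.07-fold the E13.5 value, with quartiles of 1562 and 2886 RPKM against 794 and 1357 RPKM. Atp5a1, the alpha subunit, was at 672 and 1166 RPKM at E13.5 and P90. Atp5e, the smallest F1 subunit, went against the rest. It was at 406 RPKM at E13.5, between 264.8 and 360 from E15.5 to P7 and at 243.8 at P90, and its log2 ratio of −0.73 from E13.5 to P90 was the only one past 1.5-fold downwards. Of the genes for the c subunit, Atp5g3 was the most abundant that could be read, and Atp5g1 was at 27.1, 16.7, 41.4, 43.9, 52.6 and 56.8 RPKM in stage order. Atp5g2 cannot be read with certainty here, because all of its 43-base stretches also occur in other annotated genes, and for Atp5l 85.1% do. Atp5s was at 9.44 RPKM at E13.5, was higher at each later stage and reached 40.3 RPKM at P90, with 14.3% and 68.3% of cells above 10 RPKM.

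The promoters of nuclear OXPHOS genes are known for sites of NRF1, YY1, ETS factors such as GABP, and the estrogen-related receptors. RefSeq promoters of 250 bases before and 50 bases after the start (GRCm38.p6) were at hand for 74 of the 93 genes, as 79 promoters, and were searched on both strands. The NRF1 word GCATGCGC occurred in 15.2% of them and in 3.68% of all 19820 promoters, and the YY1 word AAGATGGC in 12.7% and 3.13%. The ETS word CCGGAAGT occurred in 6.3% and 5.41%, and the estrogen-related receptor word TCAAGGTC in 5.1% and 0.94%. Overlap between matches of different words was not examined, and a match is a description of the sequence only. In 8 of the 10 genes with the YY1 word it lay between 11 and 36 bases past the start, in Ndufb8 at 39 and in Atp5j 88 bases before it. Shown are a promoter with each word, from genes described above, 5′ to 3′ on the strand of the gene with the matched bases in capitals. Ndufaf5 and Ndufs7 were the assembly factor and core subunit of complex I with the largest ratios, Cox8a is a complex IV subunit and Sdhd an anchor of complex II. They lie at chr2:140170396-140170695 (plus strand), chr10:80249199-80249498 (plus strand), chr19:7217567-7217866 (minus strand) and chr9:50603800-50604099 (minus strand).
Ndufaf5: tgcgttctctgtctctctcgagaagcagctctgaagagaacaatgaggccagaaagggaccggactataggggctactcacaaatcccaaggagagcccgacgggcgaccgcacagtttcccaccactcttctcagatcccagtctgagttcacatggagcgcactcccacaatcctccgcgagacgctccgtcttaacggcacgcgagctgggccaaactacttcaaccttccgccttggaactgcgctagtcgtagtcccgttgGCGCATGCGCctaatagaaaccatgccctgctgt
Ndufs7: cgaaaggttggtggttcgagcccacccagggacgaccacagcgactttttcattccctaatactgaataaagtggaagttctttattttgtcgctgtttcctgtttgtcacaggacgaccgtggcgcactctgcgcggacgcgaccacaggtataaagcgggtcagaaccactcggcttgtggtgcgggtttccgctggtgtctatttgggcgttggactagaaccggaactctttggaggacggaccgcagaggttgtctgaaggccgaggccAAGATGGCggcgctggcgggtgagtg
Cox8a: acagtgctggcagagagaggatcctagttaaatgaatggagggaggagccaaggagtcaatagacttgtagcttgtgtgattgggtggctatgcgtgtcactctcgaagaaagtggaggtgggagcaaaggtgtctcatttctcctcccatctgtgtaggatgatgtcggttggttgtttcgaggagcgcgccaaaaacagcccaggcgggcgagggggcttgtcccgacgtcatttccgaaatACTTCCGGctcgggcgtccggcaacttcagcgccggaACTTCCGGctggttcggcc
Sdhd: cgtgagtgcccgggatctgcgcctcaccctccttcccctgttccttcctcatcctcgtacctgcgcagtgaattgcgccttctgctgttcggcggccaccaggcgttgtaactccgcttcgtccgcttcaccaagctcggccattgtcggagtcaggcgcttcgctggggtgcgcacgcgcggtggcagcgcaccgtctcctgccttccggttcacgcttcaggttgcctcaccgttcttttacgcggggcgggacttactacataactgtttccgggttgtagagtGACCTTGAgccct

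Of 17 listed regulators of mitochondrial biogenesis, 10 were tested, 0 were higher and 2 lower by 2-fold at P90, Nrf1 and Gabpb1, with a median log2 ratio of −0.18 against −0.14 for all entries. The 2 of 10 were near the background of 21% lower. Nrf1 was at 26.5 RPKM at E13.5 and 11.03 at P90, and Gabpa at 5.35 and 3.68. Tfam, the packaging factor of mitochondrial DNA, was at 20.4 and 19.97 RPKM. Ppargc1a, the coactivator PGC-1 alpha, was too low for the filter but was higher at each later stage, at 1.32, 2.11, 3.20, 3.44, 4.21 and 7.60 RPKM, and was above 10 RPKM in 3.57% of E13.5 cells (interval 1.17% to 8.14%) and 23.7% of P90 cells (19.2% to 28.7%). Esrra was at 4.0 and 3.20 RPKM and Esrrg at 7.62 and 6.50 RPKM.

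Of the 13 mitochondrially encoded subunits, 7 were tested, and the other 6 were listed at or near 0 in every stage, which was not examined further. None of the 7 passed 2-fold, and their median log2 ratio from E13.5 to P90 was 0.15. The ratios differed among them. mt-Nd6 was at 377.1 and 608.7 RPKM, a log2 ratio of 0.69, and mt-Nd5 at 728 and 1106, a ratio of 0.60, both near the nuclear median. mt-Co1 was at 5394 and 5380 RPKM, mt-Nd1 at 4068 and 4521, and mt-Cytb, the complex III subunit, at 4819 and 3489. The share of the 13 genes in the RPKM of the median cell was 2.12% at E13.5 and 1.68% at P90, so the median over genes and the median share over cells differed in sign. Across cells of 1 stage, the nuclear and mitochondrial sums, each over the rest of the cell's RPKM, had Spearman's rho of 0.506 at E13.5 and 0.419 at P90. Both sums come from the same libraries and share their depth and denominator.

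Other lists of energy genes were set beside the 17.9% of all entries higher by 2-fold at P90. The TCA cycle list, the glycolysis list and the list of uncoupling and antioxidant genes lay above that share. The OXPHOS partners lay near it and the mitochondrial ribosomal proteins below it. The TCA cycle list also held the pyruvate dehydrogenase genes Pdha1, Pdhb, Dlat and Pdhx, and Pcx, pyruvate carboxylase. Of its 17 tested genes, 7 were higher by 2-fold and 0 lower, with a median log2 ratio of 0.96. Pdha1 and Dlat were among the 7. Idh3a, the catalytic subunit of NAD-dependent isocitrate dehydrogenase, was at 39.8 RPKM at E13.5 and 216.7 at P90, and Sucla2, a subunit of succinyl-CoA ligase, had a log2 ratio of 2.02 from 61.8 RPKM at E13.5. Of 16 tested glycolysis genes, 12 were higher and 0 lower, with a median of 1.48. Aldoa was at 253.5 and 3086 RPKM and Eno2, the neuronal enolase, at 15.7 and 681 RPKM. Of 33 tested OXPHOS partners outside the rule, mostly assembly factors, 6 were higher and 1 lower, with a median of 0.57. The list of uncoupling and antioxidant genes also held Slc25a4 and Slc25a5, which encode ADP/ATP carriers, and Sod1, which is mainly cytosolic. Of its 14 tested genes, 5 were higher and 0 lower, with a median of 0.82. Of 77 tested genes for mitochondrial ribosomal proteins, 5 were higher and 1 lower, with a median of 0.24. For 82 cytosolic ribosomal protein genes the median was −0.56, with 3 higher and 22 lower (26.8%), near the 21% of all entries lower by 2-fold, and for 36 genes with symbols in Psm, most of them proteasome subunits, it was −0.14.

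**Figure D3:**
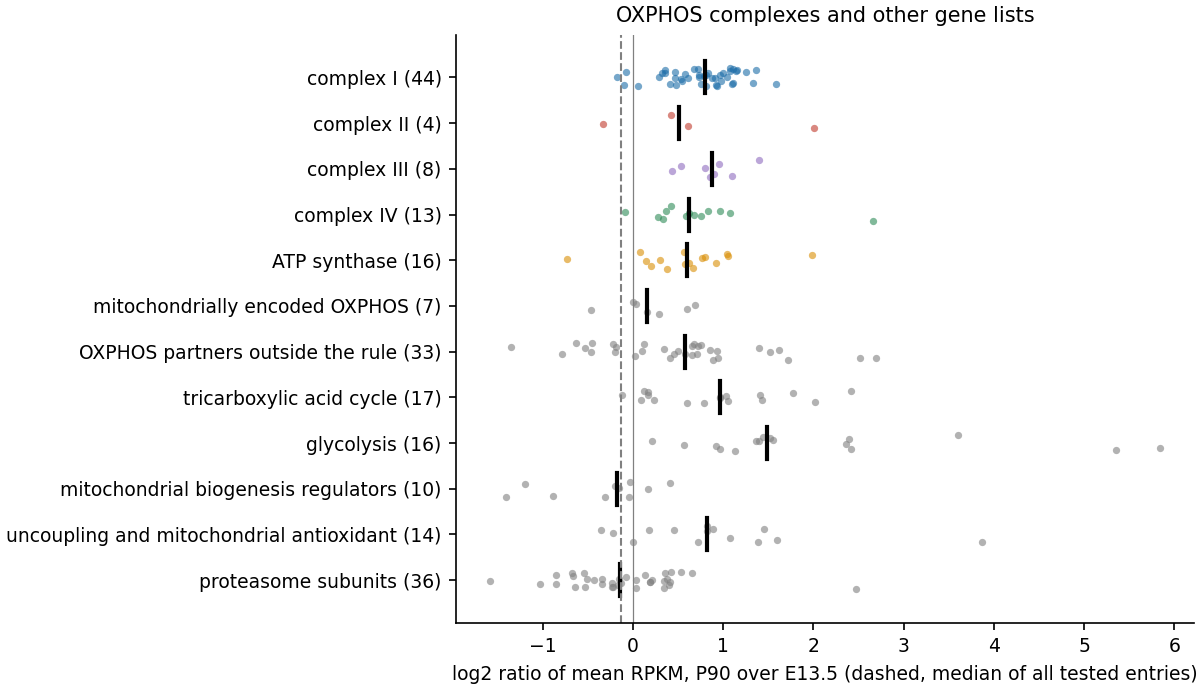
Log2 ratio of mean RPKM, P90 over E13.5, for the genes of each OXPHOS complex (colored) and of other lists (grey), with the number of tested genes in brackets. Points are genes, black bars their medians, and the dashed line is the median of all tested entries, −0.14. The medians of the 5 nuclear complexes and of the TCA cycle list lie to the right of that of the mitochondrially encoded genes, 0.15.

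Next, cells were grouped by the transcripts of Slc6a3, the dopamine transporter, Nxph4, a neurexophilin, and Gad2, a GABA-synthesizing enzyme. A cell counted as high for a gene if that gene alone of the 3 was above 150 RPKM. At P90 these were 66 Slc6a3-high cells, 57 Gad2-high cells and the 45.2% of P90 cells that were Nxph4-high, with 29 cells over the limit for none and 26 for several. The limit fell among many cells for Nxph4, since 76 P90 cells lay between 75 and 300 RPKM, against 15 for Slc6a3 and 26 for Gad2. Th, tyrosine hydroxylase, was at 5641, 134.8 and 539 RPKM in the 3 groups.

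The difference between E13.5 and P90 was seen in each group of cells. The median log2 ratio was 0.57 in Slc6a3-high cells (25 cells at E13.5), 0.79 in Nxph4-high cells (38 cells) and 0.73 in Gad2-high cells (12 cells), while all tested entries had medians of −0.20, −0.11 and −0.15. In Slc6a3-high cells 17 of 85 genes were higher by 2-fold and 0 lower, beside 18.6% and 25.6% of all entries. In Nxph4-high cells 24 were higher and 1 lower, beside 21% and 23%. In Gad2-high cells 24 were higher and 1 lower, beside 22.3% and 26.2%. Cox7a1 in the 3 groups, and Atp5s in Gad2-high cells, passed the filter only through P90. Whether the groups differed in this respect was not tested.

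Among the 3 marker groups at P90 the summed share was lowest in Slc6a3-high cells, while the 29 cells over the limit for no marker had 2.67%. It was 2.80% in the median Slc6a3-high cell (quartiles 2.51% and 3.47%), 3.18% in the median Gad2-high cell (2.78% and 3.76%) and 3.84% in the median Nxph4-high cell (3.34% and 4.46%). Of the Nxph4-high cells, 93.9% lay above the Slc6a3-high median (interval 88.7% to 97.2%). The order of Slc6a3-high and Nxph4-high cells was the same in the 4 plates, with medians of 3.35% and 4.32% in plate 1, 2.58% and 3.51% in plate 2, 2.70% and 3.71% in plate 4, and 2.54% and 3.54% in plate 5, where 8 and 18 cells were measured. Gad2-high cells lay between them in plates 2, 4 and 5 and had 4.47% in plate 1. Depth was similar, with medians of 1828000 reads in Slc6a3-high and 1845000 in Nxph4-high cells. Part of the gap lay in the denominator. The RPKM of all entries summed to 947500 in the median Slc6a3-high cell and 835900 in the median Nxph4-high cell, and the summed RPKM of the 93 genes, not divided by that total, was 28000 and 32810, or 0.854-fold. Gad2-high cells had 25240 on this scale, below the Slc6a3-high cells, so the order of these 2 groups turned.

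**Figure D4:**
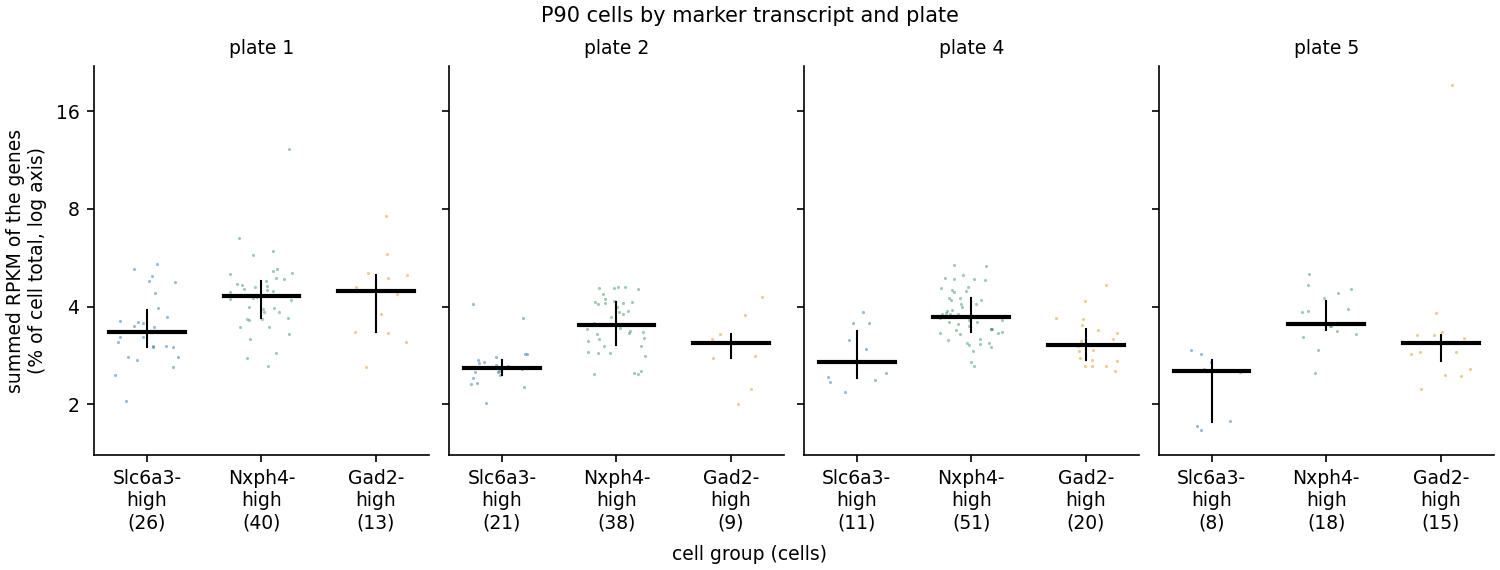
Summed RPKM of the 93 genes as a percent of all RPKM per P90 cell, on a log axis, by the marker transcript above 150 RPKM (number of cells below each column) and plate. Thick lines are medians and thin lines quartiles. In each plate the Slc6a3-high median lies below the Nxph4-high median.

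Gene by gene, the median log2 ratio of Slc6a3-high over Nxph4-high P90 cells was −0.20 for 86 OXPHOS genes and −0.09 for all tested entries. In plates 1, 2, 4 and 5 it was −0.23, −0.08, −0.34 and −0.55, with all entries at −0.13, −0.09, −0.16 and −0.08, so in plate 2 the genes did not lie below all entries. As TPM it was −0.36 with all entries at −0.26, and without mitochondrially encoded entries −0.36 with all entries at −0.27. By 1.5-fold, 0 genes were higher and 9 lower, beside 10.1% and 17.4% of all entries, so the count of lower genes was below the background share. Cox6b2 passed the filter only through Nxph4-high cells. The 9 were Cox7a1, Cox6b2, Ndufs1, Cox5a, Atp5b, Uqcrb, Uqcrc1, Ndufv2 and Ndufb5, and each was lower in all 4 plates. Atp5b was at 1746 RPKM in Slc6a3-high, 2778 in Nxph4-high and 1973 in Gad2-high cells, with log2 ratios of −0.83 to −0.57 in the plates. Ndufs1, the largest core subunit of complex I, was at 87.2 RPKM in Slc6a3-high cells, a log2 ratio of −0.76 to Nxph4-high cells. Cox5a was at 286.2 and 469 RPKM, with 37.1% of its 43-base stretches shared with other annotated genes. Cox7a1 was at 8.56 and 19.1 RPKM, and above 10 RPKM in 30.3% and 42.2% of cells. In the other direction Atp5e was at 329.8 RPKM in Slc6a3-high cells and 220.9 in Nxph4-high cells, a log2 ratio of 0.58, and Ndufaf8 was at 45.7 and 30.7, a ratio of 0.56. Differences again went with transcript length. The median was −0.03 for genes read over less than 500 bases and −0.32 for those over more than 1000, and 0.11 and −0.14 for all tested entries of those lengths.

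The TCA cycle list was lower in the same comparison, with 9 of 17 tested genes past 1.5-fold downwards and 0 upwards. Of all entries 17.4% and 10.1% were, and the median log2 ratios were −0.61 and −0.09. Dlat, Pdhx and Pcx, outside the cycle itself, were among the 9. The OXPHOS partners outside the rule went both ways, from −1.43 for Cox11 to 0.62 for Sdhaf4. Glycolysis genes ranged from −1.47 for Aldoc to 0.35 for Ldha, the only one above 0. Idh3a was at 125.8 RPKM in Slc6a3-high, 275.4 in Nxph4-high and 186.5 in Gad2-high cells. By means over cells the 7 tested mitochondrially encoded genes went the other way, with a median of 0.22 and 0 past the limit. mt-Cytb had a mean of 4181 RPKM in Slc6a3-high cells and 2980 in Nxph4-high cells. The 13 genes made up 1.29% and 1.80% of the RPKM of the median cell. Mean level and median share thus differed in sign, but they differ in the summary over cells as well as in scale. In plates 1, 2, 4 and 5 the median share was 1.15%, 1.32%, 1.61% and 1.53% in Slc6a3-high cells. In Nxph4-high cells it was 1.16%, 1.80%, 2.13% and 2.06%.

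Among the regulators, Ppargc1a differed in mean and in detection between the cell groups. It was at 0.456 RPKM in Slc6a3-high, 12.4 in Nxph4-high and 5.01 in Gad2-high P90 cells, and was above 10 RPKM in 1.52% of the first (interval 0.0384% to 8.16%), 38.1% of the second (30.2% to 46.5%) and 15.8% of the third (7.48% to 27.9%). Slc6a3-high cells also had the lowest mean of the 3 groups at E15.5, E18.5, P1 and P7, and Gad2-high cells the highest at these stages, while at E13.5 Nxph4-high cells were lowest with 0.423 RPKM. Esrrg was at 2.16, 10.1 and 5.37 RPKM and Tfam at 13.4, 23.1 and 18.1 in the same order at P90. Ppargc1a and Esrrg passed the filter on low values only through the groups in which they were high, so they are given as values alone.

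Against Gad2-high cells, Slc6a3-high P90 cells had a median log2 ratio of −0.14, with all entries at −0.07. By 1.5-fold, 1 of 86 genes, Atp5e, was higher and 5 were lower, beside 11.1% and 18.1% of all entries. Of these only Uqcrb and Cox5a kept the same sign in each plate, and Atp5e did not. Uqcrb, at 134.6 and 301.7 RPKM, had the largest difference, but 29.1% of its 43-base stretches occur in other annotated genes, and its medians over cells were 125.6 and 155.3. The Gad2-high cell of plate 5 with a share of 19.3% entered these means, and without plate 5 the median over genes was 0.02. In plates 1, 2, 4 and 5 it was −0.13, −0.02, −0.04 and −0.66, with all entries at −0.06, −0.01, −0.14 and −0.10. As TPM it was −0.29 with all entries at −0.26. Gad2-high over Nxph4-high cells had a median of −0.06 with all entries at −0.01, and of −0.24 with medians over cells or with a limit of 300 RPKM. In the same plates it was −0.07, −0.10, −0.25 and 0.12, with all entries at −0.05, −0.07, −0.01 and −0.01. The median was 0.07 for genes read over less than 500 bases and −0.23 for those over more than 1000. All tested entries of those lengths had 0.03 and −0.01. In that comparison 0 genes were higher and 1 lower, Atp5g1 at 41.2 and 67.9 RPKM, beside 7.98% and 9.13% of all entries.

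At earlier stages the order varied. Slc6a3-high over Nxph4-high cells had median log2 ratios of −0.08 (E13.5), 0.18 (E15.5), 0.06 (E18.5) and 0.04 (P7), while all entries stood at 0.01, 0.02, −0.03 and −0.05 in this order. The value at E18.5 pools 2 plates of opposite sign, 0.21 and −0.20, with all entries at −0.01 and 0.03. The median shares of the same groups were 2.44% and 2.56% at E13.5, 1.94% in both at E15.5, and 2.19% and 2.21% at E18.5. Gad2-high cells had the highest share at E13.5 (2.59%), E15.5 (2.23%) and E18.5 (2.64%). At E18.5 Gad2-high cells (24) had a median log2 ratio of 0.30 over Nxph4-high cells (16), or 0.36 and 0.16 in the 2 plates, with all entries at −0.02, and 84.5% of OXPHOS genes above 0 beside 48.7% of all entries. At P1 the median share was 2.18% in Slc6a3-high cells (38.5% of P1 cells), 2.09% in 38 Nxph4-high and 2.08% in 30 Gad2-high cells. The median log2 ratio of Slc6a3-high over Nxph4-high cells at P1 was 0.06, with all entries at −0.06, and 2 of 84 genes were higher and 0 lower, beside 11.4% and 16.2% of all entries. Without plate 1 that median was 0.22. These 2 were Atp5g1 and the assembly factor Ndufaf6. Atp5g1 was higher in Slc6a3-high than in Nxph4-high cells at 5 stages, with 33.6 and 18.6 RPKM at E13.5, 22.4 and 8.69 at E15.5, 46.4 and 28.2 at E18.5, 56.1 and 29.1 at P1, and 70.5 and 35.98 at P7. At P90 the order was the reverse, with 55.5 and 67.9 RPKM. The groups before P90 held as few as 10 cells.

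Finally, homozygotes were compared with heterozygotes, since the targeted Pitx3 gene gives no normal product in the former. Pitx3 was at 416 RPKM in heterozygote and 18.8 in homozygote cells at E13.5, and at 102.6 and 7.96 RPKM at P1, in the direction of the labels. Slc6a3 was at 117.3 and 7.11 RPKM at E13.5 and 468 and 43.8 at P1. The study reported that few homozygote cells fell in its Aldh1a1 and Dat subtypes. The pooled means below may therefore compare different mixes of cells, which was not tested.

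At E13.5 most OXPHOS genes had lower means in homozygote cells. The median log2 ratio was −0.28 for 84 genes and −0.04 for all tested entries, and 15 of 84 genes (17.9%) were above 0, beside 45.7% of all entries. With medians over cells the median was −0.17. The median share of the 93 genes was 2.02% and 2.47% in homozygote and heterozygote cells. By 1.5-fold, 1 gene was higher and 7 lower, beside 6.35% and 8.17% of all entries, so the share of lower genes was near the background. The 7 were Ndufa3, Atp5e, Atp5l, Ndufs5, Cox7b, Ndufaf7 and Cox6c. With medians over cells Ndufaf7 was not lower. Ndufa3, a small subunit of complex I, was at 368.8 RPKM in heterozygote and 204.1 in homozygote cells, and Cox7b at 294.2 and 175.2. Ndufaf1, an assembly factor, was the gene that was higher, at 12.3 and 20.8. Sdha (153.3 and 177.5 RPKM) and Atp5b (1129 and 1297 RPKM) were slightly higher in homozygotes. The difference followed transcript length, with a Spearman's rho of 0.427 over the 84 genes. The median was −0.32 for genes read over less than 500 bases and 0.02 for those over more than 1000 bases, and −0.21 and 0.00 for all tested entries of those lengths. All homozygote cells at E13.5 had spike-in RNA, came on 3 plates and had a median of 753256 reads, while the heterozygote cells had no spike-in and a median of 2357898 reads, so genotype and library batch cannot be told apart. With each cell thinned to 100000 reads the median was −0.25.

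At P1 no such difference was seen. The median log2 ratio was 0.04 for 85 genes and 0.00 for all entries, and 0 genes passed 1.5-fold in either direction, beside 6.40% and 5.17% of all entries. Against only the 94 heterozygote cells with spike-in, like all homozygote cells, the median was 0.27, and with medians over cells 0.21. Whether the stages differed in this respect was not tested. Kept P1 homozygotes held 25 cells with 3 glial or vascular markers (15%), and heterozygotes 23 (8.43%). The median share of the 93 genes was 2.46% in homozygotes and 2.13% in heterozygotes, and 2.51% and 2.14% without those cells.

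**Figure D5:**
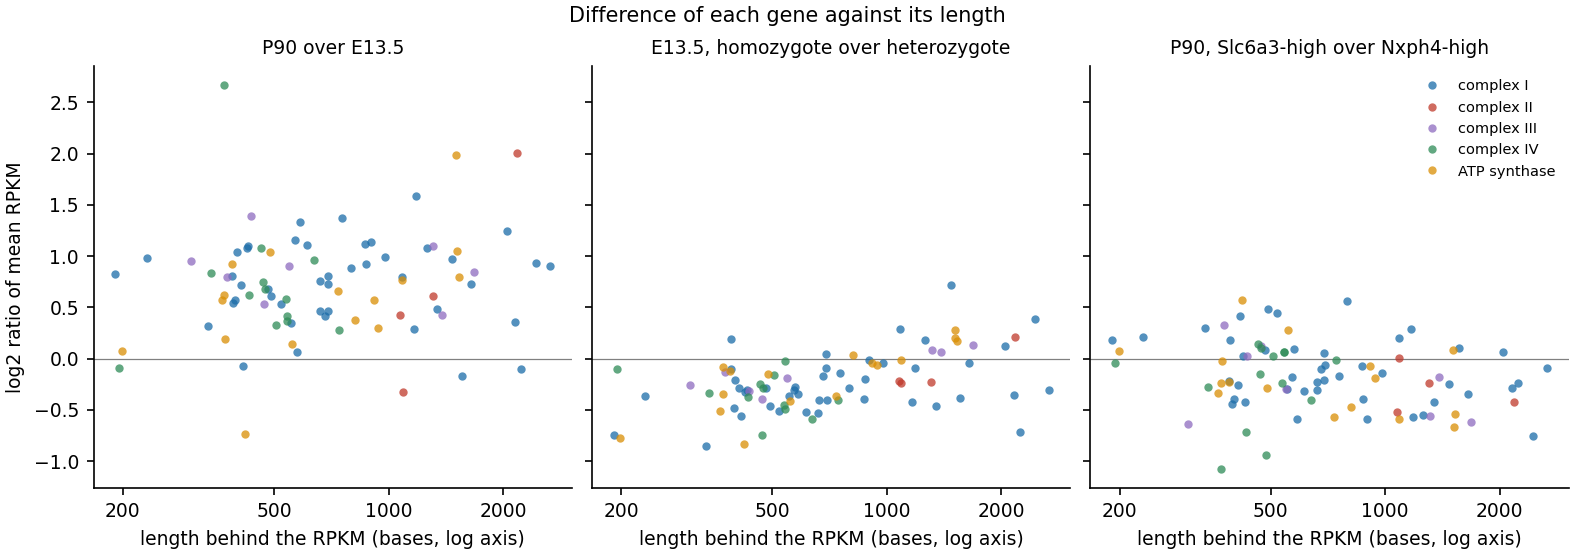
Log2 ratio of mean RPKM of each tested gene against the transcript length behind its RPKM (bases, log axis), for P90 over E13.5, E13.5 homozygote over heterozygote, and P90 Slc6a3-high over Nxph4-high cells. Points are genes, colored by complex. At P90 over E13.5 short and long genes both lie mostly above 0, and in the genotype comparison the short genes lie lower than the long ones (Spearman's rho 0.427).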

How the data were processed

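Single GFP-sorted cells were sequenced with Smart-seq2. Per the labels and the study's methods, the authors aligned reads to mm10 with STAR and gave 2 values per entry: uniquely mapped read counts and RPKM made from them with rpkmforgenes on Ensembl annotation. RPKM as deposited were used throughout, and deposited read counts for depth, thinning and summed reads. Symbols were matched for 38129 of 39468 entries. Entries without a symbol held 0.211% of reads.

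Cells needed more than 100000 reads. They also needed a read in at least 15% (3.4% at P90) of the entries that had a read in any cell. Cells with 2 of 3 oligodendrocyte-lineage markers above 10 RPKM were left out. Doublets were not called. Group levels were means over cells. Ratios used a pseudocount of 1 and entries with a mean of at least 5 RPKM, and limits of 2-fold (stages) and 1.5-fold (genotypes and cell groups). With no animal named, no test was run. Clopper-Pearson intervals were at 95%. Transcripts were searched on both strands for 43-base stretches shared with other annotated genes. Uniquely mapped reads cannot cover stretches that recur elsewhere in the genome. They can where the other gene overlaps the same place, and these cases were not told apart. Counting was checked on simulated data whose changes were larger than the limits and whose ratios were centered on their median. The reported ratios were not centered, so the check does not cover calls near the limits. Promoters came from RefSeq.

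The genes, lists and cell groups were chosen with earlier results of these data known. The rule for named genes took isoform sets, complex II, the 6 highest genes, the 6 furthest up and down per comparison, and 6 regulators. It gave more genes than are described, so the text names a part of them, chosen with their values seen. Genes outside the rule, and the emphasis on Ppargc1a in the cell groups, were chosen after their values were seen. Alternatives changed the scale, the cell filter, the summary over cells, the filter, the pseudocount, the depth, the marker limit and the plates. Analyses used Python 3.11.15, numpy 2.4.6, pandas 2.3.3 and scipy 1.17.1.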

Additional observations from a re-analysis of the deposited data

How the results depend on the processing

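No analysis paired by animal was possible, because the labels number no animals, and no result came from a test. P90 cell groups share plates, and their medians within each plate are given beside the pooled ones. The median log2 ratio from E13.5 to P90, 0.73, was 0.58 as TPM, 0.59 without mitochondrially encoded entries, 0.52 from summed reads and 0.61 to 0.80 without 1 plate. The 20 genes past 2-fold became 12 as TPM, 10 without mitochondrially encoded entries, 12 from summed reads, 52 at 1.5-fold and 3 at 3-fold. The ratio of summed shares, 1.37, was 1.51 when the sum was not divided by the cell total. Between genotypes at E13.5, the median was −0.17 with medians over cells and −0.32 to −0.22 without 1 plate, and Ndufaf7 stood at 0.0063 with medians over cells. At P1 it was 0.21 with medians over cells, 0.27 against spike-in cells alone and −0.03 to 0.08 without 1 plate. For Slc6a3-high over Nxph4-high P90 cells it was −0.36 as TPM, −0.36 without mitochondrially encoded entries and −0.24 to −0.16 without 1 plate, and the share ratio of 0.73 was 0.85 for the undivided sum. For Slc6a3-high over Gad2-high cells the sign turned with medians over cells (0.042), with a limit of 300 RPKM (0.029) and without plate 5 (0.021). That median was −0.29 as TPM, −0.31 without mitochondrially encoded entries and −0.22 to 0.021 without 1 plate. Gad2-high over Nxph4-high cells gave −0.24 with medians over cells, −0.24 with the limit of 300 and −0.14 to −0.01 without 1 plate. At P1, Slc6a3-high over Nxph4-high cells gave 0.22 without plate 1. The causes were not tested. With 1 sample per stage and genotype, the intervals cover counting error only, and low genes such as Cox7a1 rest on few reads per cell.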
